A study of Mus musculus with 2 samples.

Results

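The miR-23/27/24 miRNAs come from 2 short clusters of hairpin genes, the Mir23a cluster with Mir23a, Mir27a and Mir24-2 and the Mir23b cluster with Mir23b, Mir27b and Mir24-1, and Mir3074-1 is annotated across Mir24-1 on the opposite strand. These 7 genes were chosen by name and looked up in the count tables by Ensembl identifier. Of them, 6 had a row among the 1973 miRNA genes of each table. Mir24-1 had none under its identifier and was read here only through the other-strand column of Mir3074-1. The tables came from microRNA sequencing of total RNA from the neural tube, the tissue that gives rise to the brain and spinal cord, of B6NCrl mouse embryos aged 14.5 days. No transgene, treatment or second condition is given in the labels, and both libraries form 1 group. Replicate 1 came from pup 1 of dam 1 and replicate 2 from pup 1 of dam 2. The labels name a single neural tube per sample and also state a sex of male and female pooled, which leaves the number of embryos in each sample unclear.

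Replicate 1 held 3172235 counts on the sense strand of miRNA genes and replicate 2 held 3671915. A level is given as counts per 1000000 of these (CPM), and 1 count was worth 0.315 CPM in replicate 1 and 0.272 CPM in replicate 2. Each dam gave 1 library, so all intervals cover counting error only. The PCR reads carried no stated molecular identifiers, so copies of 1 molecule may be counted more than once. The intervals may then be too narrow for counting error as well. Beside the tissue label, the 10 neuronal genes Mir137, Mir128-1, Mir128-2, Mir138-1, Mir153, Mir218-1, Mir218-2 and the 3 copies of Mir124a were looked up. Their summed level was 14226 CPM in the first library and 13312 CPM in the second, and 0 of them were without a count. Copies at near-identical loci lose reads, so these sums are lower limits for the families. Mir137 alone stood at 9594 and 9321 CPM, and each copy of Mir124a had at most 23 counts in a library. The endothelial gene Mir126a stood at 8443 and 17271 CPM. The neuronal sum therefore does not show how much of each sample was neural tissue.

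A miRNA is cut from a hairpin in a longer primary transcript, and bases 2 to 8 of the mature strand, the seed, pair with target messages. The genes of each cluster are transcribed together as 1 primary transcript and are then processed into separate miRNAs. The miR-23/27/24 clusters are best known from blood vessels, where they act in endothelial growth and sprouting, and they are also expressed in muscle, blood cells and glia. In the nervous system miR-23 is known for its part in oligodendrocyte maturation.

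On chromosome 8 of GRCm38, the assembly also called mm10, Mir23a lies at 84208518 to 84208592, Mir27a at 84208672 to 84208758 and Mir24-2 at 84208815 to 84208921, all on the plus strand. The cluster spans 404 bases. Mir23a and Mir27a overlap no other annotated gene, while the last 2 bases of Mir24-2 overlap an exon of the noncoding gene Gm26532. On chromosome 13, Mir23b lies at 63300484 to 63300557, Mir27b at 63300712 to 63300784 and Mir24-1 at 63301208 to 63301275, again on the plus strand, across 792 bases. Their host on that strand is 2010111I01Rik, which RefSeq calls Aopep and which encodes an aminopeptidase. Mir23b overlaps none of its exons and is thus intronic, and Mir27b is within an exon of a transcript marked for nonsense-mediated decay. Mir24-1 is within an exon of such a transcript too. Mir3074-1, at 63301199 to 63301283 on the minus strand, covers the whole of Mir24-1 and is in an intron of Fancc, a DNA repair gene. Its counterpart on chromosome 8, Mir3074-2, was not analysed here.

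**Figure D1:**
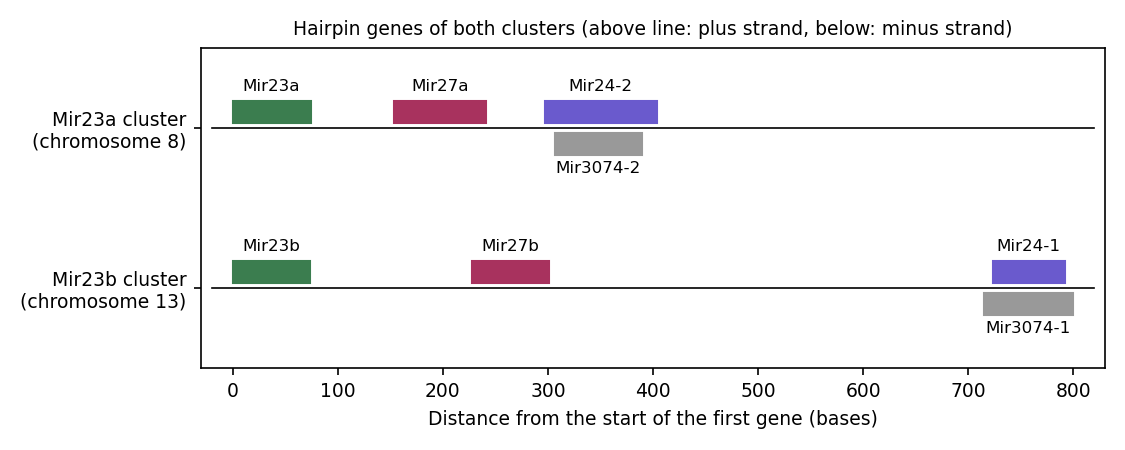
Positions of the hairpin genes in both clusters, as the distance in bases from the start of the first gene, with plus-strand genes above each line and minus-strand genes below. The Mir23a cluster spans 404 bases and the Mir23b cluster 792, with the same order of genes, and Mir3074-1 lies across Mir24-1.

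All 7 hairpins were found in RefSeq sequences of GRCm38.p6. The mature strands of the 3′ arm are shown because their seeds define the families and because 1 base separates paralogs. Capitals mark the seed, and each strand reads 5′ to 3′.
miR-23a-3p (Mir23a): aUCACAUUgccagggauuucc
miR-27a-3p (Mir27a): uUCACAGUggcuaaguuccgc
miR-27b-3p (Mir27b): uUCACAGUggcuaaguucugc
miR-24-3p (Mir24-1 and Mir24-2): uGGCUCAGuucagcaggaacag
The seed of miR-27a-3p is that of miR-27b-3p, and these were the 2 mature strands in the table of 1679 names to hold it. Counted from the 5′ end, the miR-23a-3p and miR-27a-3p seeds differ by U7G, 1 base of 7. MiR-27a-3p and miR-27b-3p differ by C19U alone, outside the seed. The best match to miR-23a-3p in the Mir23b hairpin differs by U19A alone. The whole of miR-24-3p stands in both Mir24 hairpins.

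How much of a read identifies its gene follows from the hairpins, shown for each pair with capitals on the longest run of bases that both copies share.
Mir23a: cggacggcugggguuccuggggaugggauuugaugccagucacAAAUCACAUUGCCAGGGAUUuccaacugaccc
Mir23b: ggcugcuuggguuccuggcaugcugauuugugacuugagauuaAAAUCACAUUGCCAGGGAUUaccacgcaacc
Mir27a: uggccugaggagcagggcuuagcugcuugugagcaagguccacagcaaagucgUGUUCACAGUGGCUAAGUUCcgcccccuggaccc
Mir27b: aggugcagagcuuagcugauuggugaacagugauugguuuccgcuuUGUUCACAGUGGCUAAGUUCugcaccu
Mir24-2: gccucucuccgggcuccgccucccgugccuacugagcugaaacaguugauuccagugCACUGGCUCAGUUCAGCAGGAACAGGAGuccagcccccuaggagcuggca
Mir24-1: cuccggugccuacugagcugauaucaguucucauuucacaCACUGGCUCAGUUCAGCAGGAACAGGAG
The shared run is 20 bases in the miR-23 pair, 20 in the miR-27 pair and 28 in the miR-24 pair. A read of the 3′ arm of miR-23 or miR-27 can be placed at 1 gene where it reaches base 19 of the mature strand. A read that lies within the run of 28 bases, as miR-24-3p does, fits both Mir24 genes. The tables set reads at several positions apart, and these were 32.4% of all reads in replicate 1 and 33.3% in replicate 2. Counts of Mir24-2 therefore describe what can be told apart from Mir24-1, such as the 5′ arm, and not the amount of miR-24-3p. The tables do not separate the arms of any hairpin.

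MiR-23 made up most of the counts of both clusters that could be placed at 1 gene. Reads that fit both Mir24 genes, such as miR-24-3p, are not among these counts. The share of miR-23 in all miRNA of the clusters is thus not known from them. Mir23b, a miRNA gene of the chromosome 13 cluster, had 18114 counts in replicate 1 and 28097 in replicate 2, or 5710 and 7652 CPM. Its mean of 6681 ± 1373 CPM (SD, n = 2) ranked 21 among all 1973 genes. Mir23a, its paralog, had 6694 and 10010 counts, or 2110 and 2726 CPM, with a mean of 2418 ± 436 CPM (SD, n = 2) and a rank of 54. In each library Mir23b stood above Mir23a, by 2.71-fold and 2.81-fold.

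The miR-27 genes were lower than their miR-23 neighbours in both clusters and both libraries. Mir27b had 1130 counts in replicate 1 and 3153 in replicate 2, or 356 and 859 CPM, with a mean of 607 ± 355 CPM (SD, n = 2). Mir27a had 90 and 242 counts, or 28.4 and 65.9 CPM, with a mean of 47.1 ± 26.5 CPM (SD, n = 2). Replicate 2 was the higher library for both genes. The SD between libraries was 58.5% of the mean for Mir27b and 56.3% for Mir27a, against 20.6% for Mir23b and 18.0% for Mir23a.

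Reads that could be given to 1 miR-24 gene were few. Mir24-2 had 78 counts in replicate 1 and 154 in replicate 2, or 24.6 and 41.9 CPM, with a mean of 33.3 ± 12.3 CPM (SD, n = 2). The mature strands of the 5′ arm are shown because they can tell the genes apart: both share the seed in capitals and their first 16 bases.
miR-24-2-5p (Mir24-2): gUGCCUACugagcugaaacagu
miR-24-1-5p (Mir24-1): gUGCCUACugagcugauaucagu
Mir3074-1, opposite Mir24-1, had 286 counts in its sense column in replicate 1 and 329 in replicate 2, or 90.2 and 89.6 CPM, with a mean of 89.9 ± 0.395 CPM (SD, n = 2). In its other-strand column, where reads from the strand of Mir24-1 would stand, it had 12 and 40 counts, or 3.78 and 10.9 CPM. The other strand held 4.03% of its reads in replicate 1 and 10.8% in replicate 2. This share was unusual in the tables. Of 293 genes with at least 100 counts over both strands and libraries, 14 had more than 1% of them on the other strand. The median gene had 0%. Over both libraries the share of Mir3074-1 was 7.80%, and 12 genes, itself among them, had at least that share. In 11 of the 293 genes the other strand held more reads than the sense strand. MiR-3074-5p, printed because it is the reverse complement of bases in the shared run, is also the same in both Mir3074 hairpins.
miR-3074-5p (Mir3074-1 and Mir3074-2): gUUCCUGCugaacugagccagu
Strand here is that of GENCODE M21, while the counts used the older annotation M4, whose strand for Mir3074-1 was not checked. If that differed, the 2 columns would change places.

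The order of levels in CPM was Mir23b, Mir23a, Mir27b, Mir3074-1, Mir27a and Mir24-2. The order was the same per 100 bases of hairpin, from 9028 CPM for Mir23b to 31.1 CPM for Mir24-2. These hairpins are 73 to 107 bases long, so the division could change the order little. The values of Mir27a and Mir24-2 overlapped between libraries, so their order was not beyond the spread, although Mir27a was the higher in each library. All other neighbours in the order kept apart across both libraries. The place of Mir3074-1 rests on its sense column: with its columns exchanged it would stand last, at 3.78 and 10.9 CPM. The 5 genes of the plus strand together took 0.979% ± 0.220 (SD, n = 2) of all sense counts.

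**Figure D2:**
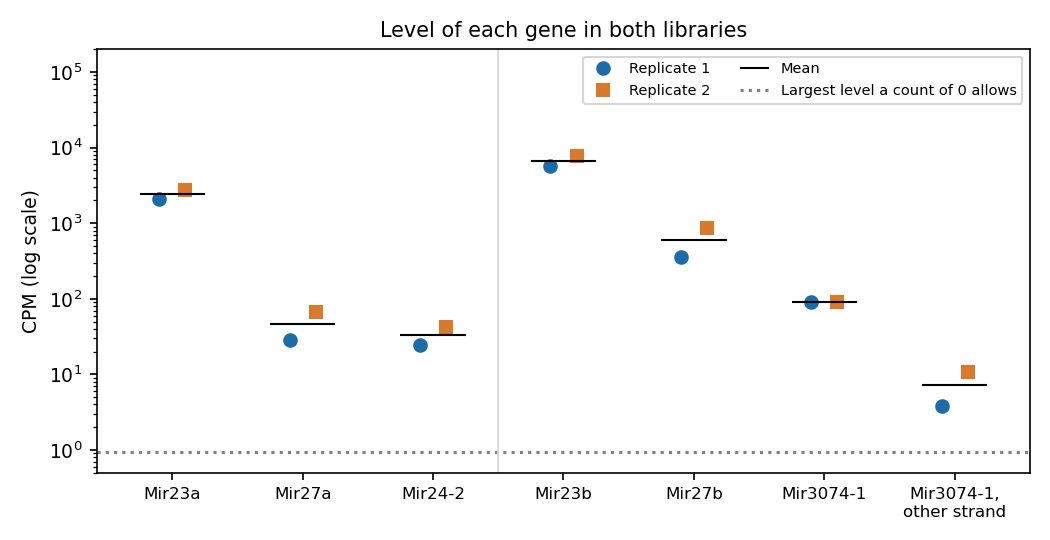
Level in CPM, on a log axis, of each gene in replicate 1 (circles) and replicate 2 (squares), with the mean as a line and the level that a count of 0 allows (3 counts, 0.946 CPM in replicate 1) dotted. Mir23b is highest at 5710 and 7652 CPM, and replicate 2 lies above replicate 1 in all columns except the sense column of Mir3074-1.

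The Mir23a cluster gave a smaller share of the miR-27 counts than of the miR-23 counts, and for these pairs the share differed by under 1 percentage point between libraries. Mir23a held 26.98% of the miR-23 counts in replicate 1 (exact 95% interval 26.4 to 27.5) and 26.3% in replicate 2 (25.8 to 26.7). Mir27a held 7.38% of the miR-27 counts in replicate 1 (5.97 to 8.99) and 7.13% in replicate 2 (6.29 to 8.05). The Mir23a-cluster copy was thus the minor copy of both families, and the intervals of miR-27 lay below those of miR-23 in each library. For miR-24 the split depended on which column of Mir3074-1 holds the reads of Mir24-1. With the other-strand column, 12 and 40 reads, Mir24-2 held 86.7% in replicate 1 (77.9 to 92.9) and 79.4% in replicate 2 (73.0 to 84.8). With the columns exchanged, 286 and 329 reads, Mir24-2 held 21.4% (17.3 to 26.0) and 31.9% (27.7 to 36.2). Which copy of miR-24 had more reads can therefore not be told from these tables.

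These shares do not depend on how the libraries are scaled, and 4 of them were compared between libraries by a two-sided Fisher's exact test with Benjamini-Hochberg adjustment. The miR-23 share gave p = 0.0481 and an adjusted p of 0.0962 by this exact test, with an odds ratio of 1.04 (95% interval 1.00 to 1.08). The miR-27 share gave an adjusted p of 0.796, with an odds ratio of 1.04 (0.798 to 1.34) by the exact test. The miR-24 share gave an adjusted p of 0.249, with an odds ratio of 1.69 (0.810 to 3.74) by the exact test, an interval too wide at this depth to tell a shift of that size from none. With the columns of Mir3074-1 exchanged the difference turned to -10.5 percentage points, with an adjusted p of 0.00161 by the exact test. The share of the summed Mir23a cluster was 26.3% and 25.0%, a difference of 1.32 percentage points that passed the exact test with an adjusted p of 0.00053. With the other-strand column of Mir3074-1, no single pair passed this test. The summed share also moves with the ratio of miR-27 to miR-23 counts, which differed between libraries. How much of the difference came from that ratio was not tested.

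Between the libraries of the dams, the miR-27 genes stood further apart than the miR-23 genes. Library sizes were adjusted with edgeR's TMM factors. A gene was called where its counts gave a Benjamini-Hochberg adjusted p below 0.05 in an exact binomial test (two-sided) and the difference reached 2-fold. Each dam gave 1 library, so this is a comparison of the libraries and not of litters. Mir27b was called, at 2.08-fold higher in replicate 2 (exact binomial adjusted p = 5.99e-108). As a log2 ratio, always taken with replicate 1 as numerator, this was -1.06 (95% interval -1.16 to -0.96). Mir27a was 1.997-fold higher in replicate 2, with a log2 ratio of -0.998 (-1.37 to -0.65) that fell just short of the 2-fold minimum. Scaled by total counts, its log2 ratio was -1.21 and it was called.

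The miR-23 genes and Mir24-2 lay closer. Mir23b was 1.16-fold higher in replicate 2, with a log2 ratio of -0.21 (95% interval -0.24 to -0.18), and Mir23a 1.11-fold, with a log2 ratio of -0.16 (-0.20 to -0.11). Mir24-2 was 1.47-fold higher, with a log2 ratio of -0.55 (-0.97 to -0.16), and was not called. In all 5 of these plus-strand genes, which lie in 2 clusters, the library of dam 2 was higher. Over all 360 tested genes, 185 (51.4%) were higher in that library. Mir3074-1 had a log2 ratio of 0.22 (-0.01 to 0.45) and an exact binomial adjusted p of 0.0980 in its sense column, while its other-strand reads had a log2 ratio of -1.27 (-2.38 to -0.35).

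Of the 6 members tested, 1 was called, or 2 with the columns of Mir3074-1 exchanged. Over all 360 genes tested, 37 were called (10.3%), 14 higher in replicate 1 (3.89%) and 23 higher in replicate 2 (6.39%), and 62.2% of the calls were thus higher in replicate 2. With scaling by total counts that share was 81.4%, since the median log2 ratio of all genes moved from -0.02 to -0.23. The median of the 6 members was -0.38, beside -0.02 over all 360 genes. The call of Mir27b ended once a spread between libraries was assumed. With a coefficient of variation of 0.2 the adjusted p in edgeR's exact test was 0.147, where 5.83% of all tested genes were called. With the 0.303 estimated from these libraries Mir27b was not called either, where 1.94% were called. That estimate came from the same difference between libraries that was then tested, so it could leave few genes called.

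**Figure D3:**
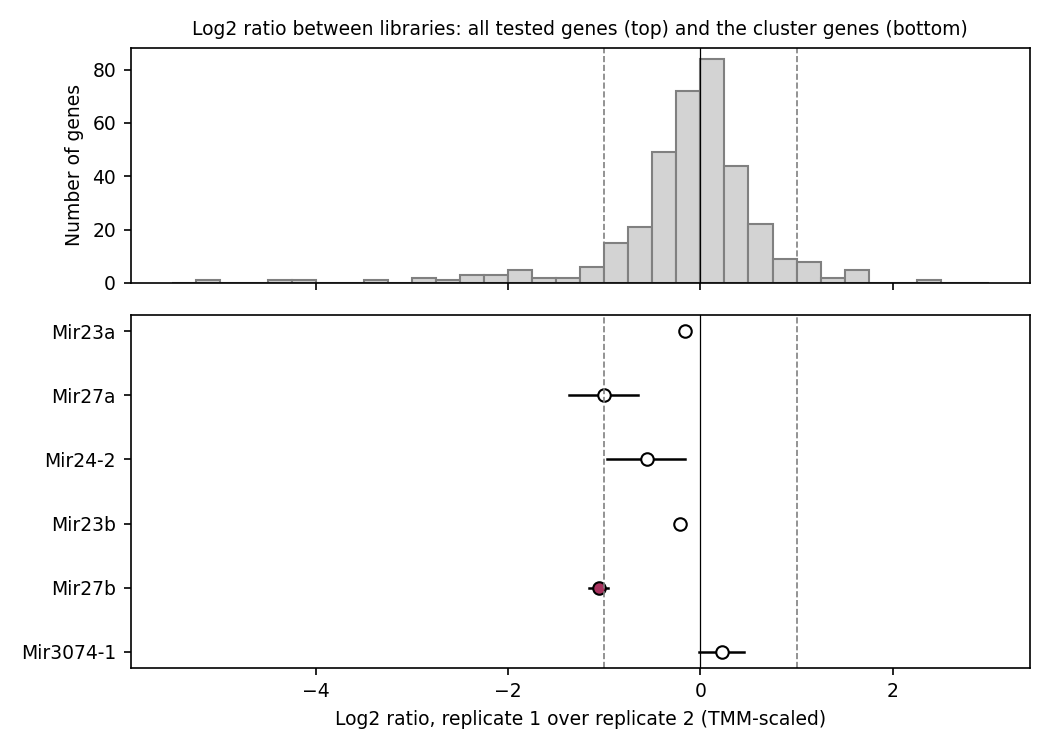
Log2 ratio of replicate 1 over replicate 2 for the 360 tested genes (histogram, number of genes) and for the 6 members (points with exact 95% intervals, filled where called), with dashed lines at 2-fold. The points of Mir27a and Mir27b sit at -0.998 and -1.06, those of Mir23a and Mir23b at -0.16 and -0.21.

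Within each cluster the miR-27 gene differed from its miR-23 neighbour by almost the same factor. For each 100 counts of Mir23b there were 6.24 of Mir27b in replicate 1 and 11.2 in replicate 2, a 1.80-fold difference (exact 95% interval 1.68 to 1.93). For each 100 counts of Mir23a there were 1.34 of Mir27a in replicate 1 and 2.42 in replicate 2, also 1.80-fold (1.40 to 2.32). Both intervals lay above 1, and this comparison of neighbours was chosen after the values were seen. Mir24-2 per 100 counts of Mir23a went from 1.17 to 1.54, with an interval of 0.997 to 1.76 on the fold of 1.32. In cluster shares, Mir27b took 5.87% of Mir23b plus Mir27b in replicate 1 (5.54 to 6.21) and 10.1% in replicate 2 (9.76 to 10.4). Mir27a took 1.31% (1.06 to 1.61) and 2.33% (2.04 to 2.63) of the counts placed in the Mir23a cluster, which leave out miR-24-3p.

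Such a gap between neighbours was not confined to these clusters. Among 57 other pairs of tested neighbours on the same strand within 1000 bases, the median difference between their log2 ratios was 0.34. In 6 of them (10.5%) the difference was at least that of Mir23a and Mir27a, 0.84. With at least 100 counts for both genes, 4 of 46 pairs (8.70%) were that far apart. The difference between Mir23b and Mir27b was 0.85, on 4283 counts or more for each gene over both libraries. Reads at several positions, among which miR-23 and miR-27 reads that end before base 19 would fall, were 32.4% and 33.3% of the libraries, and their part in these ratios was not tested.

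**Figure D4:**
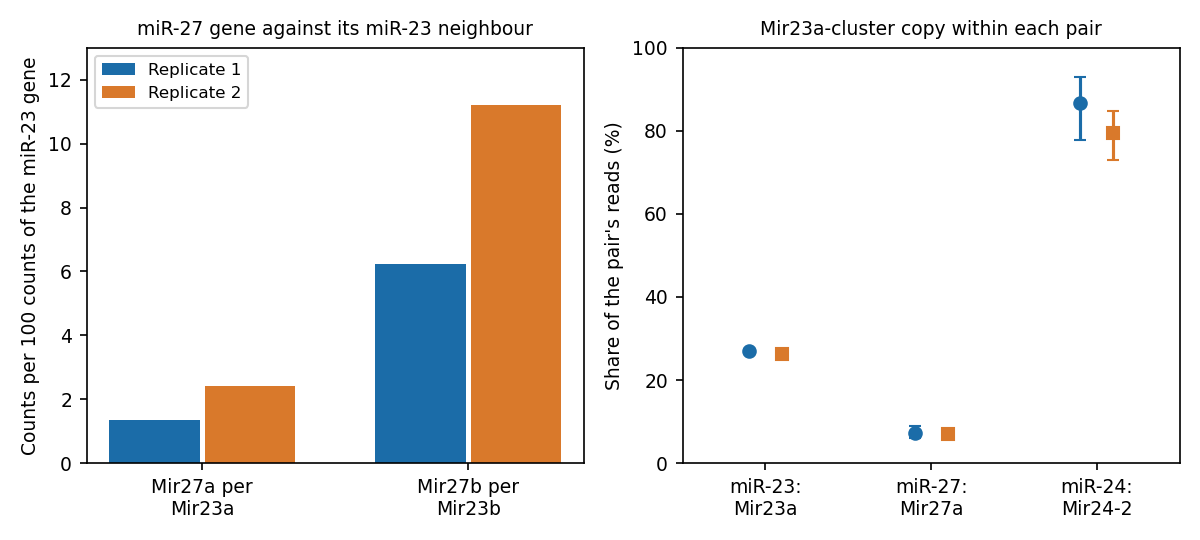
Left, counts of each miR-27 gene per 100 counts of the miR-23 gene in its cluster, in replicate 1 and replicate 2 (bars from 0). Right, percent of each pair's reads from the Mir23a cluster, among reads placed at 1 gene, with exact 95% intervals. The values are 26.98% and 26.3% for miR-23, 7.38% and 7.13% for miR-27 and 86.7% and 79.4% for miR-24. The miR-24 share takes the other strand of Mir3074-1 as Mir24-1, whose strand was not checked, and would be 21.4% and 31.9% with the columns exchanged.

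Of the 8 tested marker miRNA genes of vessels, smooth muscle and mesenchyme, 6 were called, all higher in replicate 2. Over all 360 tested genes, 6.39% were called higher in that library. Mir143 lies near Mir145a on 1 strand, as do Mir199a-2 near Mir214 and Mir221 near Mir222. The 6 calls are therefore not 6 independent observations. These calls cover counting error only, and the lists were not counted again with an assumed spread between libraries. Mir126a, the endothelial miRNA gene, had 26782 counts in replicate 1 and 63418 in replicate 2, with a log2 ratio of -0.82 (95% interval -0.84 to -0.80), below the 2-fold minimum, and with scaling by total counts it was called at -1.03. It was the 1 of 2 endothelial genes with a row. Of the vascular growth genes, Mir221 was called at a log2 ratio of -1.38 and Mir222 was not, at -0.10. Of the 6 smooth muscle and mesenchymal genes, 5 were tested and 5 were called higher in replicate 2, and their summed level was 1197 CPM in replicate 1 and 4894 CPM in replicate 2. Mir143, a smooth muscle miRNA gene, had the highest level of that list, with 3454 counts in replicate 1 and 15727 in replicate 2 and a log2 ratio of -1.76. The log2 ratios of the 5 tested genes ran from -4.22 for Mir199a-2, on 1 and 37 counts (95% interval -10.1 to -2.22), to -1.51 for Mir145a.

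Fewer genes were called in the blood and neuronal lists, which hold only part of the miRNA genes of these cells. Mir182, Mir183 and Mir96, a sensory cluster on none of the lists, were called higher in replicate 2. Their log2 ratios were -2.71, -2.38 and -2.77. Of the 5 leukocyte genes tested, 1 was called higher in replicate 2, the myeloid gene Mir223, and the summed level was 154 and 283 CPM. Of the 3 erythroid genes, 1 was called, Mir486, higher in replicate 1, with sums of 94.3 and 113 CPM. Mir451a, at a log2 ratio of -0.24, and Mir144, at -0.39, lay on the other side of 0 and were not called. Of the 9 neuronal genes tested, 2 were called higher in replicate 1 and 0 higher in replicate 2, and 3 had a log2 ratio below 0. Over all 360 tested genes, 3.89% were called higher in replicate 1 and 6.39% higher in replicate 2. In lists this short, 1 or 2 calls are too few to set against those shares. In bulk tissue fewer cells of a type and less RNA per cell cannot be told apart, and the part of vascular, mesenchymal or blood cells in the miR-23/27/24 counts was not tested.

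The 2 genes called in the neuronal list were Mir128-1 and Mir128-2. Their mature strand is shown because its seed, in capitals, stands within miR-27 from base 3 on.
miR-128-3p (Mir128-1 and Mir128-2): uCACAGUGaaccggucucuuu
Mir128-1 had 5554 counts in replicate 1 and 3291 in replicate 2, with a log2 ratio of 1.18 (95% interval 1.12 to 1.24). Mir128-2 had 2370 and 1453 counts, with a log2 ratio of 1.13 (1.03 to 1.22). The miR-27 and miR-128 genes, with overlapping seed letters, thus lay on opposite sides of 0 in these libraries. With scaling by total counts the Mir128 genes stood at 0.97 and 0.92, under the 2-fold minimum, and 0 of the 9 neuronal genes were called.

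**Figure D5:**
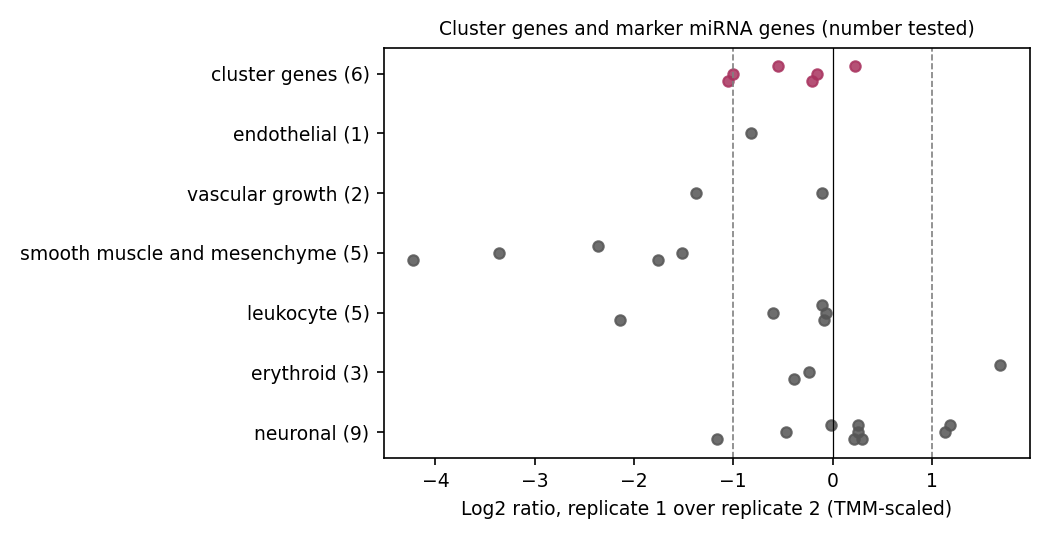
Log2 ratio of replicate 1 over replicate 2 for the 6 cluster genes and for the tested marker genes of each list (number in parentheses), 1 point a gene, with dashed lines at 2-fold. All 5 smooth muscle and mesenchymal genes lie beyond 2-fold on the replicate 2 side, and 2 neuronal genes beyond 2-fold on the replicate 1 side.

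The genes with levels most like a member's were found by the distance between log2(CPM + 1) values over the 2 libraries, which is a description of 2 points. Closest to Mir23a were Mir151, at 2210 and 2741 CPM, and Mir652, at 2007 and 2782 CPM. Closest to Mir23b were Mir127, at 5076 and 7153 CPM, and Mir30a, at 7114 and 7505 CPM. Mir27b had Mir351, at 328 and 727 CPM, and Mir341, at 488 and 721 CPM. Mir351 shared the gap between libraries, with a log2 ratio of -0.93, while Mir341 stood at -0.35. Mir27a had Mir92-2 and Mir326, Mir24-2 had Mir30c-1 and Mir302b, and Mir3074-1 had Mir669c and Mir412. Members themselves were left out of this search.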

How the data were processed

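The authors deposited 1 table of raw counts per library, without normalization, listing reads by miRNA gene in columns for either strand, the sense strand and the other strand. Per the text notes deposited beside the tables, they derive from alignments to mm10 and the annotation M4. For aligner, adapter trimming and filters, the tool and settings are not stated in those notes or in the labels. The 4 rows that name no gene were left out: reads at several positions (32.4% and 33.3% of reads in replicates 1 and 2), unmapped reads (11.5% and 11.8%), reads on no gene (2.75% and 3.01%) and ambiguous reads (0%).

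Symbols and positions came from GENCODE M21 by identifier without version, for 1894 of 1973 genes. Sequences came from RefSeq (GRCm38.p6). CPM is per 1000000 sense counts. Genes with at least 10 counts in 1 library were tested (360), with TMM scaling in edgeR 4.0.16 (R 4.3.3), a two-sided exact binomial test in scipy 1.17.1, Benjamini-Hochberg adjustment over all of them and a prior count of 0.5 in log2 ratios. With 1 library per dam there were no residual degrees of freedom for a quasi-likelihood test. The binomial test was tested on simulated data that held counting error only. This cannot show how the test behaves with a spread between libraries. Alternatives were total counts, DESeq2 1.42.0 size factors, other filters, the either-strand column and an assumed or estimated spread. Fold intervals of neighbours are exact conditional intervals of the odds ratio.

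Members, comparison lists and tests were chosen with earlier results of these data known. Genes named are the members, the marker lists, genes within 10 kb and, for each member, the 2 genes nearest in level. Mir182, Mir183 and Mir96 were named as well because of their calls. Of the lists, Mir126b and Mir142 had no row and were not analysed here.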

Additional observations from a re-analysis of the deposited data

How the results depend on the processing

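The 5 plus-strand members kept a log2 ratio below 0 under each scaling, strand-column and spread alternative run for them. The filters on low counts were run for counts of genes only. Mir3074-1, whose interval included 0, stood at 0.0093 with total scaling. With its columns exchanged, an alternative added after seeing the data, its log2 ratio turned to -1.27 and its mean level to 7.34 CPM, 2 members were called, the Mir24-2 share of miR-24 was 26.7% on average and the difference of that share between libraries turned from 7.29 to -10.5 percentage points. Without the 3 most abundant genes in the total, mean CPM was 5105 for Mir23a, 98.3 for Mir27a, 69.8 for Mir24-2, 14093 for Mir23b, 1265 for Mir27b and 190.9 for Mir3074-1, since the total shrank. The either-strand column gave 95.9 CPM for Mir3074-1. Scaled by total counts, 2 members were called, with Mir27a at -1.21, as they were with the total without the 3 most abundant genes, an alternative chosen after seeing the data, with Mir27a at -1.08. With a coefficient of variation of 0.2 between libraries 0 members were called, and with the estimated one, also added later, again 0, Mir27b standing at -1.06 in each. Over all genes, 21 were called with 0.2 (4 higher in replicate 1) and 7 with the estimate (0 higher in replicate 1, 7 in replicate 2). A filter of 100 counts left 20 (5 and 15), and scaling by total counts gave 8 higher in replicate 1 and 35 in replicate 2. Leaving out either library leaves 1 sample and a value with no test: for mean CPM and shares the values are those of the single libraries in the report. No paired analysis was possible because both libraries belong to 1 group. Few counts limit Mir24-2, Mir27a and the other strand of Mir3074-1.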
